A study of Mus musculus with 12 samples.

Results

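Early ethanol was compared with saline in mice that had grown up in enriched cages, using the 6 hippocampal libraries of those cages out of the 12 in the series. Both groups were C57BL/6 mice killed at postnatal day 70. The enriched ethanol group (3 libraries) had received ethanol at 2.5 g/kg in 0.15 M saline under the skin, in 2 injections 2 hours apart on postnatal days 6 and 7. The enriched saline group (3 libraries) had received the same volumes of saline on the same days. From day 21 both groups lived with 2 to 6 littermates of their own sex in large cages with wheels, ladders, toys and hidden food, so the enrichment itself is common to both. The other 6 libraries, ethanol and saline mice of the same strain and age in standard housing, were used for the shared estimate of spread and for a comparison of the housings. Of 36119 listed genes, the 14947 whose mean level over the 12 libraries reached 1 were tested. The labels call the exposure prenatal, although the injections were given to pups. The sex and litter of each mouse are not given. Nothing in the labels says that replicates came from separate litters or cages, so the p-values measure only the spread between these libraries.

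In mice the days around the first postnatal week are a period of rapid brain growth that is often set beside late human gestation, and ethanol at that age is known to kill developing neurons and to disturb glia. The hippocampus is a curved sheet of CA1, CA3 and dentate gyrus neurons that serves memory, and its dentate gyrus goes on making neurons in the adult. Enrichment with running wheels is known to raise neurogenesis, growth factor signalling and synapse number there.

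Values are the deposited TPM, a level per transcript length scaled to about the same total in each library. The enriched libraries summed to between 973187 and 1013701, and sequencing depth is unknown. Markers of the dissected tissue were present in each of the 6 libraries. The 15 dentate granule cell markers summed to 489.5 to 603.9 and the 11 CA1 pyramidal cell markers to 575 to 655.3. Some libraries stood apart. Enriched saline replicate 2 held choroid plexus, with a sum of 9373 over 18 markers against 205 to 247.9 in the other 5 libraries. Enriched ethanol replicates 1 and 2 stood apart from replicate 3 in heat shock and inflammatory genes, and replicate 3 had the highest myelin marker sum (6807 against 4196 to 5231). In such bulk tissue, fewer cells of a type and less RNA per cell cannot be told apart.

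No gene passed. With p-values adjusted by Benjamini-Hochberg, limma called 0 of 14947 genes (0%) at the 0.05 level, and the smallest adjusted p was 0.383. At an unadjusted p under 0.05, limma gave 1160 genes (7.76%), of which 576 were higher in ethanol mice (3.85%) and 584 lower (3.91%). These counts were 347 and 346 without enriched ethanol replicate 1. All 3 ethanol libraries lay above all 3 saline libraries for 1163 genes (7.78%) and below them for 1113 genes (7.45%). Most differences were small, with a median absolute log2 fold change of 0.11, and 232 genes differed by more than 1 on the log2 scale. The called count did not stay at 0 under every setting: it was 15 without enriched ethanol replicate 3, 2 without enriched saline replicate 1, and 1 each without enriched ethanol replicate 2 and without enriched saline replicate 3. Fold changes below are on the scale of log2(TPM + 0.5), which understates the change of low genes, and the words higher and lower describe group means of genes that did not pass. Counts of 3 or fewer genes in a list are sensitive to single libraries: where no other value is given below, leaving out 1 enriched library moved them by at most 2 genes.

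**Figure D1:**
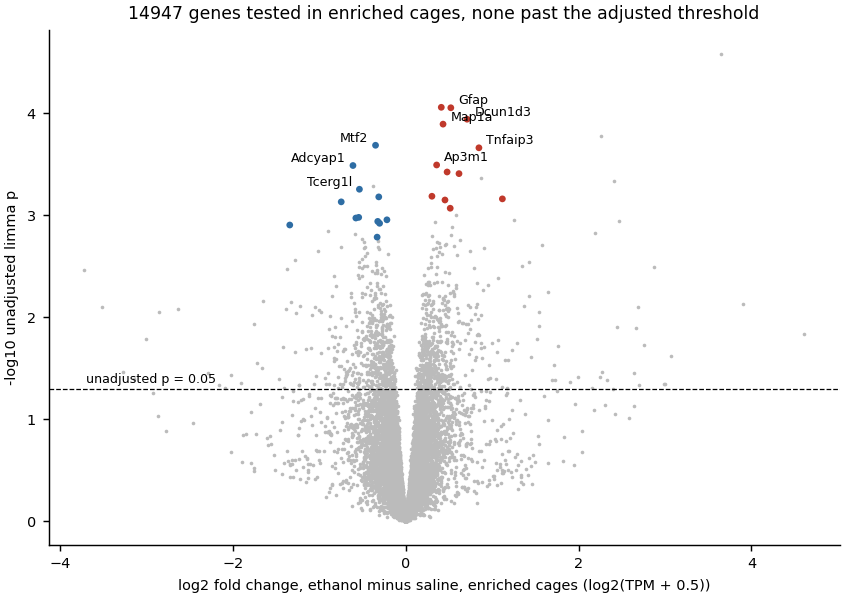
Each point is 1 of the 14947 genes, with the log2 fold change of ethanol over saline in enriched cages on the x axis and the -log10 of the unadjusted limma p on the y axis. Coloured points are the 12 genes of smallest p in each direction among those whose libraries do not overlap, leaving out pseudogenes, unnamed predicted genes and genes with a group all at 0. Of all points, 1160 lie above the dashed line at 0.05 and none has an adjusted p below 0.383.

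The genes that came closest on the higher side had varied roles, and are taken in turn. The 12 genes of smallest p in each direction were chosen among genes whose groups do not overlap. Their separation is therefore required by the rule and is no support. The genes of largest fold change, described further below, were chosen under the same condition. Gfap, which encodes the glial filament protein of astrocytes (chromosome 11, 102887336 to 102900912, GRCm38), was at 276, 252 and 242 in the ethanol libraries and at 169, 202 and 166 in the saline libraries. The groups did not overlap, and the log2 fold change was 0.52, with an SE of 0.09 (limma adjusted p = 0.383). In standard cages Gfap was at 252, 248 and 253 after ethanol and at 260, 220 and 267 after saline, so that the 3 enriched saline libraries held the lowest levels of the 12. Map1a, a protein that binds and stabilises microtubules in mature dendrites, was at 435, 429 and 403 after ethanol and at 316, 315 and 308 after saline. The saline libraries lay close together, and the log2 fold change was 0.43, with an SE of 0.08 (limma adjusted p = 0.384). Map7, which recruits kinesin to microtubules, was at 73.7, 79.3 and 77.6 against 60.5, 62.7 and 63.2 (log2 fold change 0.30, with an SE of 0.07).

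Rab8a, a small GTPase that directs vesicles to the plasma membrane and the primary cilium (chromosome 8, 72161200 to 72183904), had the smallest p of the genes chosen this way. It was at 41.0, 45.1 and 44.5 in ethanol mice and at 31.4, 32.6 and 33.7 in saline mice (0.41 on the log2 scale, SE 0.07; limma adjusted p = 0.383). Ap3m1, a subunit of the AP-3 adaptor that sorts cargo to lysosomes and synaptic vesicles, averaged 58.6 ± 3.37 against 45.5 ± 1.76 (SD, n = 3 each). Its lowest ethanol library (55.8) lay well above its highest saline library (46.9). Of the 26 tested genes of Rab-dependent traffic, Rab8a was the only one that was higher at an unadjusted p under 0.05, and 3 were lower at that level, so the group as a whole did not follow it (median log2 fold change -0.00262, against -0.00715 over all genes). Among those 3 was Rab3b, a synaptic vesicle GTPase, at 51.0, 52.2 and 64.2 against 65.1, 74.1 and 63.4. Its groups overlapped. The 3 became 0 without enriched ethanol replicate 1 or 2 and 1 without enriched saline replicate 1. Over all genes 3.85% were higher and 3.91% lower at an unadjusted p under 0.05. Exoc2, a subunit of the exocyst that tethers vesicles to the plasma membrane, averaged 31.3 ± 1.53 against 35.4 ± 1.90.

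Dcun1d3, which promotes the attachment of NEDD8 to cullin ubiquitin ligases, was at 21.8, 20.9 and 19.4 after ethanol and at 11.9, 13.7 and 11.8 after saline. The difference was 0.71 on the log2 scale, with an SE of 0.13 (limma adjusted p = 0.384). No other gene of the 21 tested for neddylation and cullins had an unadjusted p under 0.05, and their median log2 fold change was -0.0149. Tnfaip3 (A20), an enzyme that edits ubiquitin chains and restrains NF-kappaB signalling, was at 5.10, 4.48 and 4.31 against 2.72, 2.19 and 2.15. Its lowest ethanol library lay above its highest saline library (log2 fold change 0.85, with an SE of 0.16). Mfsd2a, the transporter that carries docosahexaenoic acid lipids across the blood-brain barrier, was at 15.2, 15.98 and 16.9 against 12.5, 9.92 and 11.7. Its log2 fold change was 0.48 (SE 0.10) and its groups were separate.

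The remaining genes of the higher 12 were nuclear or ciliary. Sox11, a transcription factor of immature neurons, was at 12.5, 11.99 and 11.6 after ethanol and at 8.10, 8.78 and 9.08 after saline. Ing3, a reader of methylated histone H3 in the NuA4 acetyltransferase complex, averaged 31.1 ± 4.29 against 21.5 ± 1.76. The histone gene Hist1h2bj averaged 12.6 ± 0.943 against 8.10 ± 1.10. Histone genes are near-identical copies among which reads are divided by estimate, so this value is uncertain. Iqca, an ATPase of motile cilia, averaged 2.75 ± 0.724 against 0.987 ± 0.268. All 12 had limma adjusted p-values between 0.383 and 0.551.

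**Figure D2:**
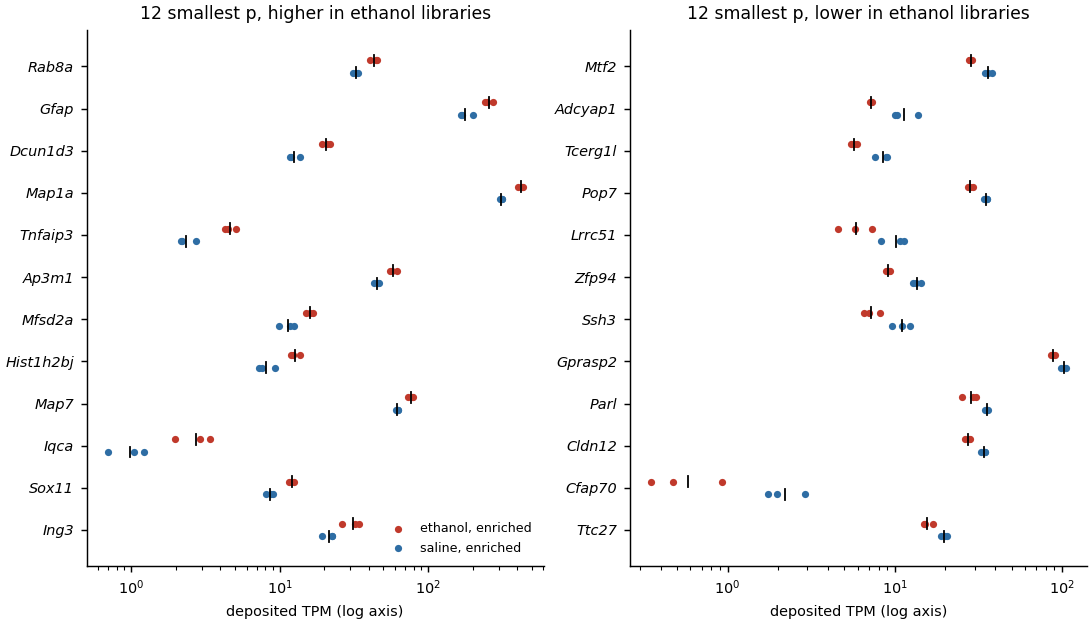
Deposited TPM on a log axis for the 12 genes of smallest p in each direction, with 1 point per enriched library, red for ethanol and blue for saline, and a black bar at each group mean. The groups of every gene shown are separate, as the rule that chose them requires; Gfap, for example, spans 242 to 276 in ethanol and 166 to 202 in saline libraries.

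On the lower side the closest gene was Mtf2, an accessory subunit that brings Polycomb repressive complex 2 to unmethylated CpG islands (chromosome 5, 108065674 to 108109004). It was at 27.7, 28.3 and 29.1 in ethanol mice and at 36.2, 34.7 and 37.9 in saline mice (-0.35 on the log2 scale, SE 0.07; limma adjusted p = 0.409). The core of the complex did not go with it: of 11 tested subunits and partners, Mtf2 alone was lower at an unadjusted p under 0.05 and Aebp2, another accessory subunit, was higher, at 43.5, 40.8 and 38.5 against 37.2, 36.7 and 36.1. The median of the 11 was -0.0397, close to that of all genes. Of 35 enzymes of DNA methylation and histone modification 2 were higher and 1 lower at an unadjusted p under 0.05, close to the shares over all genes (3.85% and 3.91%). Tet3, which oxidises methylcytosine, averaged 13.2 ± 1.15 against 9.98 ± 0.585, the deacetylase Sirt1 averaged 14.8 ± 1.43 against 12.4 ± 0.778, and Hdac3 was lower, at 52.6 ± 3.29 against 60.1 ± 4.70.

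Adcyap1 encodes PACAP, a peptide that acts on neurons and glia through cyclic AMP (chromosome 17, 93199017 to 93206537). It was at 7.35, 7.17 and 7.09 after ethanol and at 10.3, 10.0 and 13.8 after saline, a difference of -0.61 on the log2 scale (SE 0.12; limma adjusted p = 0.488). Vip, a related peptide made by interneurons, was at 23.6, 24.5 and 25.5 against 33.8, 29.4 and 37.8 (log2 fold change -0.44, with an SE of 0.17). For both peptides every ethanol library was below every saline library, which for Adcyap1 the rule that chose it requires. The receptor gene Vipr1 averaged 9.16 ± 0.104 against 10.7 ± 2.02, and its groups overlapped. Neurotensin (Nts), made by subicular neurons among others, was also lower, at 11.7, 11.3 and 12.5 against 18.1, 13.4 and 14.9. These 3 were the neuropeptide genes, of 23 tested, with an unadjusted p under 0.05, and none was higher at that level; 5 were lower without enriched ethanol replicate 3. The median of the 23 was -0.0616, with 6 above 0, against 48% of all genes above 0 and 3.91% lower at that level.

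The other genes on the lower side had varied roles. Tcerg1l, a gene related to a transcription elongation regulator, was at 5.97, 5.45 and 5.67 against 7.65, 8.99 and 8.83 (log2 fold change -0.53, with an SE of 0.11). Pop7, a protein subunit of RNase P and RNase MRP, was at 27.5, 28.1 and 29.3 against 35.4, 35.8 and 34.4 (log2 fold change -0.31, with an SE of 0.07). Another subunit, Pop4, averaged 19.3 ± 2.57 against 23.6 ± 1.72, while the 10 tested subunits together had a median of 0.06. Gprasp2, which sorts G protein-coupled receptors for degradation, averaged 88.2 ± 2.29 against 102 ± 3.65. Parl, a rhomboid protease of the inner mitochondrial membrane, averaged 28.4 ± 2.85 against 35.5 ± 0.704, and the phosphatase Ssh3, which activates cofilin, 7.22 ± 0.841 against 11.02 ± 1.32. Cldn12, a claudin, averaged 27.5 ± 1.09 against 34.0 ± 1.10. Zfp94, Lrrc51 and Ttc27 completed the group at -0.54, -0.74 and -0.33 on the log2 scale. Unc13b, which primes synaptic vesicles for release, averaged 24.4 ± 1.27 against 30.7 ± 1.59 (log2 fold change -0.32), the lowest p of the 30 presynaptic genes.

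The largest fold changes with an unadjusted p under 0.01 belonged to genes of low level or of uneven libraries. Camp, the antimicrobial peptide of neutrophils, was at 2.45, 1.78 and 1.64 after ethanol and at 0, 0.737 and 0.253 after saline. Cfap157, a protein of motile cilia, was at 5.78, 8.44 and 3.60 against 1.47, 1.68 and 1.49 (log2 fold change 1.58, with an SE of 0.40), and Tmem212, an ependymal gene, at 3.85, 6.52 and 10.6 against 3.24, 3.19 and 2.19. Their ethanol libraries were high in different order, and Cfap70, a protein of ciliary axonemes, went the other way, at 0.347, 0.472 and 0.927 against 2.90, 1.76 and 1.98. Olfr1033, annotated as an olfactory receptor, was at 170, 135 and 57.5 against 54.3, 55.5 and 25.8, so that replicate 3 of the ethanol group lay just above the saline libraries. Serpina3g, a protease inhibitor with many near-identical relatives, averaged 1.57 ± 0.390 against 0.294 ± 0.255. Crb3 and Pla2g5 were lower, with log2 fold changes of -1.39 and -1.33, and in both enriched saline replicate 2 was far above the rest (5.56 and 5.19 against at most 1.72 elsewhere in the 6 libraries). That library also held the choroid plexus markers, and the part of that tissue in these values was not tested. Apol7e and Ccna1 had log2 fold changes of -1.26 and -1.05 at levels of at most 3.69.

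Heat shock chaperones, inflammatory genes and glucocorticoid response genes are described together. For the heat shock and glucocorticoid lists enriched ethanol replicates 1 and 2 had the highest list means of the 6 libraries. The inflammatory list mean is not used, because some of its members passed the filter only through libraries in which they were high. Hspa1a and Hspa1b encode the inducible HSP70 chaperone, which heat shock factor switches on through elements of repeated GAA units, and Cxcl1 (a neutrophil chemokine) and Icam1 (an adhesion molecule for leukocytes) are classic targets of NF-kappaB, which binds kappaB sites. The sequences before these 4 genes are shown because the genes are among those called without enriched ethanol replicate 3, and because the HSP70 pair is a pair of near-identical copies. Each runs from base 250 to base 11 before the RefSeq start (GRCm38.p6), 5′ to 3′ on the gene's strand. Capitals mark GAANNTTC, a heat shock element core, and GGANNTTCC, a core found in many kappaB sites, on both strands. These letters were chosen after the sequences had been read.
Hspa1a (minus strand, chr17:34972167-34972406): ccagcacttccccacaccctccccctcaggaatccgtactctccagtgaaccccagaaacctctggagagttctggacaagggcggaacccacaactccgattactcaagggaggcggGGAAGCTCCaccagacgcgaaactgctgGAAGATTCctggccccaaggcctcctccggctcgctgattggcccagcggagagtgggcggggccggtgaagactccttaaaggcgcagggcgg
Hspa1b (minus strand, chr17:34959249-34959488): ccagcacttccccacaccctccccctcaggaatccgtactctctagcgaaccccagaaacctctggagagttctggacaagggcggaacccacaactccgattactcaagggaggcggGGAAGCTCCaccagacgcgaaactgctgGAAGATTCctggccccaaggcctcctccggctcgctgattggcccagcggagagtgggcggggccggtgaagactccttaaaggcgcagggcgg
Cxcl1 (plus strand, chr5:90890995-90891234): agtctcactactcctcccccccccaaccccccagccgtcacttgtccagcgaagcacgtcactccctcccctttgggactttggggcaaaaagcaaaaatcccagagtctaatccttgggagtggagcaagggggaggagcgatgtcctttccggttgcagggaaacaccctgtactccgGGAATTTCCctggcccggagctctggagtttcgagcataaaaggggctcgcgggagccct
Icam1 (plus strand, chr9:21015690-21015929): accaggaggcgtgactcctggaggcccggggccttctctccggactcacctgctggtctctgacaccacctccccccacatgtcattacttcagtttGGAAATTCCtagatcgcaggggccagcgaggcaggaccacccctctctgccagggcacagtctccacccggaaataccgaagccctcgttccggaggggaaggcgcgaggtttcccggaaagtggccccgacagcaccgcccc

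The windows of Hspa1a and Hspa1b were identical at 238 of 240 bases, each with 1 match to either motif. Cxcl1 and Icam1 each held 1 match to GGANNTTCC and 0 to GAANNTTC. Over all 32851 windows of the same length, 6.33% held GAANNTTC and 3.39% held GGANNTTCC. Among tested genes with a window, 7 of 19 heat shock chaperones held GAANNTTC and 3 held GGANNTTCC. Of 11 inflammatory genes 6 held GGANNTTCC and 1 held GAANNTTC. Among them Cxcl1, at least, passed the filter only through libraries in which it was high. The letters were also chosen after sequences had been read, so the counts of either list are not a result about its genes. A gene was counted if any of its windows matched, so these counts are not the same measure as the shares over windows. A match is a description of the letters and not a measured binding site.

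Of 25 tested cytosolic heat shock chaperones and cofactors, all 25 had a log2 fold change above 0, 11 were higher at an unadjusted p under 0.05 and none was lower, against 3.85% of all genes higher (median 0.20 against -0.00715). Hspa1a was at 39.9, 40.02 and 7.96 in ethanol mice and at 10.2, 11.7 and 9.38 in saline mice. Hspa1b was at 48.9, 50.2 and 11.3 against 9.62, 13.6 and 11.6, and the division of reads between the pair is uncertain. In both, replicates 1 and 2 stood above all other libraries and replicate 3 lay within or below the saline range. Dnajb1, the HSP40 partner of HSP70, was at 47.3, 52.8 and 25.6 against 23.9, 24.8 and 27.4, and the small chaperone Hspb1 at 25.8, 24.6 and 6.67 against 4.54, 11.5 and 8.42. Other members had replicate 3 above the saline libraries as well. Hsph1, an HSP110 that recharges HSP70, was at 239, 224 and 180 against 178, 170 and 143, and its cochaperone Bag3 at 6.14, 5.25 and 3.84 against 3.09, 3.49 and 3.14. Hsp90ab1, the constitutive HSP90, was at 1335, 1300 and 1163 against 1126, 1157 and 1039. The number higher at an unadjusted p under 0.05 was 18 without enriched ethanol replicate 3, 4 without either of the other 2 ethanol libraries and 5 without enriched saline replicate 3. The stress genes of the endoplasmic reticulum differed less: 0 of 26 had an unadjusted p under 0.05, with a median of 0.06, and the chaperone Hspa5 (BiP) was at 301, 329 and 224 against 195, 313 and 237, with overlapping groups. Without enriched ethanol replicate 3 that count was 5 higher and 1 lower.

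Of 25 listed inflammatory genes 13 passed the filter on low values, and some of these, such as Cxcl1, passed only through the libraries in which they were high. Cxcl1 was at 12.5, 7.92 and 0.173 after ethanol and at 0.349, 0.0811 and 0.434 after saline. Icam1 was at 15.6, 13.6 and 2.64 against 2.75, 3.43 and 3.35, and Vcam1, its relative on endothelium and astrocytes, at 42.3, 39.9 and 20.8 against 18.1, 25.7 and 18.2. Replicates 1 and 2 were again the high libraries, and replicate 3 was below the saline mean for Cxcl1 and Icam1. Because the filter favoured such genes, no count of higher or lower genes over the list is given. In Tnfaip3, Ackr1 and Ptgs2 all 3 ethanol libraries lay above all 3 saline libraries. Ackr1, a chemokine-binding receptor of venules, was at 35.1, 26.5 and 18.4 against 14.4, 14.3 and 14.3. Ptgs2 (cyclooxygenase-2) was at 17.9, 18.01 and 16.4 against 15.5, 12.7 and 13.9. Nfkbia, the inhibitor of NF-kappaB, overlapped, at 44.3, 35.1 and 23.4 against 23.8, 26.3 and 18.3. Outside the list, Ch25h, which makes 25-hydroxycholesterol in activated macrophages, was at 9.92, 9.94 and 0.547 against 1.16, 0.572 and 1.30. Among genes induced in reactive astrocytes, Lcn2 was at 20.6, 14.1 and 0.728 against 0, 1.53 and 3.75. Of 18 tested, 3 were higher at an unadjusted p under 0.05, against 3.85% of all genes. The list mean, as a difference from that of all 12 libraries, was 0.406 and 0.371 in ethanol replicates 1 and 2. In replicate 3 it was -0.152, within the range of the saline libraries (-0.323, -0.0354 and -0.0406). The filter can favour genes high in a few libraries, so the count is not a result about the list.

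Markers of blood and vessels were measured beside these genes. The sum of 10 blood cell markers, most of it haemoglobin, was 2398, 5075 and 1059 in the ethanol libraries and 1408, 2370 and 2168 in the saline libraries. The neutrophil gene S100a9 was at 16.9, 20.7 and 4.13 against 5.80, 13.2 and 13.1. None of the 10 had an unadjusted p under 0.05, and enriched ethanol replicate 3 had the lowest blood sum of the 6. The sum of 20 microglial markers was 797.8 to 842.9 against 778.6 to 856.9, and that of 18 endothelial markers 736.4 to 791.8 against 764.5 to 925.4. None of the 48 tested markers of these 3 lists was at 0 in any of the 6 libraries, and their part in the inflammatory values was not tested.

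Glucocorticoid response genes showed the same split to a lesser degree. Of 22 tested, 20 had a log2 fold change above 0 and 6 were higher at an unadjusted p under 0.05 (Arrdc2, Sgk1, Ddit4, Nfkbia, Gpd1 and Errfi1), with none lower (median 0.23). Over all genes 48% were above 0 and 3.85% higher at that level. Sgk1, a kinase induced by corticosterone, was at 144, 150 and 51.4 against 51.3, 68.5 and 57.0. Ddit4, an inhibitor of mTORC1, was at 62.6, 63.9 and 43.2 against 41.8, 34.3 and 35.0, and Errfi1, an inhibitor of EGF receptor, at 35.6, 39.5 and 26.5 against 24.8, 23.6 and 23.7. For Ddit4 and Errfi1 all 3 ethanol libraries were above all 3 saline libraries, while for Sgk1 replicate 3 lay within the saline range's lower end. Gpd1, an enzyme of glycerol phosphate that oligodendrocytes express, was highest in replicate 3 instead, at 58.1, 60.6 and 62.3 against 52.5, 53.8 and 48.4. The count was 10 without enriched ethanol replicate 3, and 4 and 3 without replicates 1 and 2.

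Leaving out enriched ethanol replicate 3 gave 15 calls with limma, 12 of them protein-coding, and they are named here because of that result. The 11 that were then higher were Hspa1a, Hspa1b, Dnajb1, Icam1, Vcam1, Cxcl1, Ch25h, Sgk1, Errfi1, P4ha1 and Ccdc117. With 2 ethanol against 3 saline libraries, their log2 fold changes ran from 0.63 for Errfi1 (limma adjusted p = 0.0101) to 3.76 for Cxcl1. Cxcl1 passed the filter only through libraries in which it was high, so its call is drawn from the values that admitted it. P4ha1, a collagen prolyl hydroxylase, was at 57.9, 66.0 and 37.3 against 32.3, 37.0 and 38.1, and Ccdc117 at 20.5, 19.8 and 9.44 against 10.2, 10.6 and 11.9. Cdc42bpa, a kinase of the actin cytoskeleton, was the 1 that was lower, at 112, 103 and 163 against 162, 157 and 166. In 7 of the 12 the omitted library lay within the range of the saline libraries. No label separates it from the other ethanol replicates.

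**Figure D3:**
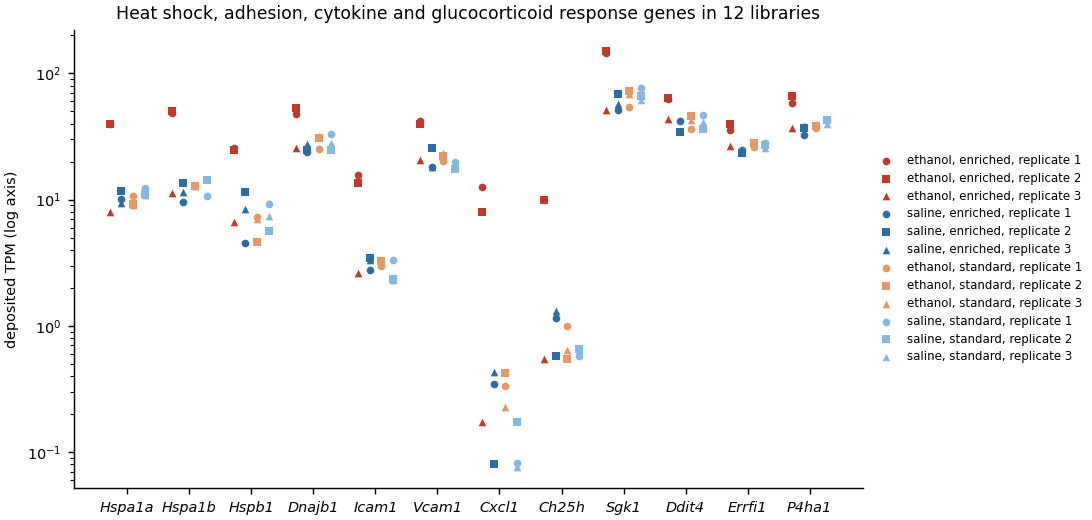
Deposited TPM on a log axis for 12 heat shock, adhesion, cytokine and glucocorticoid response genes in all 12 libraries, with colour for group and marker shape for replicate number. Enriched ethanol replicates 1 and 2 (red circles and squares) stand above the other 10 libraries, for example at 39.9 and 40.02 for Hspa1a, while replicate 3 (red triangle, 7.96) lies with the rest.

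Genes that neurons switch on with activity varied between libraries. Of 32 immediate-early genes 24 had a log2 fold change above 0 and 4 were higher at an unadjusted p under 0.05 (Sik1, Nr4a3, Fosl2 and Jun), with a median of 0.18, against 48% and 3.85% of all genes. Nr4a3, an orphan nuclear receptor, was at 33.4, 33.2 and 32.9 against 27.3, 22.9 and 24.4, and the AP-1 subunit Fosl2 at 21.2, 20.2 and 20.9 against 17.7, 16.01 and 14.9. In these 2 genes the ethanol libraries were closely alike and separate from saline. The genes most used as activity markers varied more between libraries. Arc, which acts at synapses to remove AMPA receptors, was at 185, 233 and 102 against 122, 81.8 and 96.0, and Fos at 30.2, 43.2 and 19.5 against 36.3, 20.1 and 28.6. Both overlapped between groups, as did Bdnf, the neurotrophin, at 25.4, 28.5 and 34.0 against 31.2, 30.3 and 23.4. Its relative Ntf3 was separate, at 11.3, 10.5 and 11.2 against 9.10, 9.30 and 8.11 (log2 fold change 0.30, with an SE of 0.13). The immediate-early count was 9 without enriched ethanol replicate 3, 2 without replicate 1 and 6 without enriched saline replicate 3.

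Astrocyte and myelin genes were mostly above 0, while microglial genes were not (8 of 20, median -0.0189). Over all genes 48% were above 0, and 3.85% were higher and 3.91% lower at an unadjusted p under 0.05. Of 20 astrocyte identity genes 17 had a log2 fold change above 0, with a median of 0.10. Besides Gfap, Slc1a2, the glutamate transporter GLT-1, was at 1328, 1202 and 1314 against 1061, 1019 and 1144, and the water channel Aqp4 at 102, 96.4 and 118 against 86.4, 97.9 and 83.6. Slc1a2 was separate between groups and Aqp4 was not. These 3 were the astrocyte genes at an unadjusted p under 0.05, and 1 was without enriched ethanol replicate 3. Of 22 myelin and mature oligodendrocyte genes 19 were above 0 (median 0.28), 5 were higher at an unadjusted p under 0.05 (among them Ugt8a, Fa2h, Myrf and Cldn11) and none was lower. Fa2h, which hydroxylates the fatty acids of myelin lipids, was at 16.5, 15.7 and 22.9 against 12.6, 8.53 and 10.9. Myrf, the transcription factor that starts myelination, was at 13.98, 12.2 and 12.7 against 7.65, 7.56 and 9.55. Mbp, the basic protein that compacts myelin, was at 1690, 1773 and 2361 against 1631, 1399 and 1494. For Mbp and Fa2h replicate 3 of the ethanol group was the highest of the 6 libraries, while for Myrf replicate 1 was. The myelin count was 8 without enriched ethanol replicate 1, and 2 without enriched ethanol replicate 3 or without enriched saline replicate 2, and 3 without enriched saline replicate 3. Among 13 precursor genes Enpp6, a mark of newly forming oligodendrocytes, and Tnr were higher at an unadjusted p under 0.05. Tnr, the matrix protein tenascin-R, was at 103, 99.7 and 102 against 87.2, 76.4 and 78.5. Together with the proteoglycan Ptprz1 (108 ± 8.16 against 90.3 ± 4.02) it made 2 of 10 perineuronal net genes at that level.

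Markers of newborn and immature neurons were above 0 for 13 of 17 (median 0.19), of which 2, Sox11 and Igfbpl1, were higher at an unadjusted p under 0.05. The shares over all genes were 48% above 0, 3.85% higher and 3.91% lower at that level. Igfbpl1, a secreted protein of young neurons, was at 2.88, 1.63 and 4.90 against 2.32, 1.12 and 0.630, with overlapping groups. Dcx, the microtubule protein of migrating neurons, was at 8.27, 8.39 and 7.96 against 7.53, 6.66 and 7.21, which is separate but small (log2 fold change 0.19, with an SE of 0.14). Hes5, a Notch target of neural stem cells, was lower at 10.4, 10.97 and 13.3 against 13.2, 15.2 and 18.3. Of 16 proliferation genes Ccnd2, the cyclin of dividing progenitors, was at 41.1, 44.3 and 33.1 against 26.8, 29.1 and 27.2. Cdk1 was also higher, at 1.64, 2.77 and 2.01 against 0.636, 0.646 and 1.53, and Mcm2, a helicase subunit of DNA replication, lower at 3.95, 3.17 and 3.92 against 5.79, 4.57 and 8.71.

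Mature neuron markers had mixed values. For scale, 48% of all genes were above 0, and 3.85% were higher and 3.91% lower at an unadjusted p under 0.05. Of 15 dentate granule cell genes 11 were above 0 (median 0.11), and Lct (21.6, 21.8 and 19.4 against 15.3, 16.2 and 14.1) and Il1rap, a coreceptor of interleukin-1 (41.0, 41.1 and 42.6 against 33.3, 38.3 and 34.4), were higher at an unadjusted p under 0.05. Trpc6, a cation channel, was lower, at 32.0, 32.2 and 32.6 against 34.2, 45.6 and 37.5. Prox1, the transcription factor that defines granule cells, was at 29.5, 23.8 and 28.0 against 20.8, 23.4 and 18.7. Of 11 CA1 markers Zbtb20, a transcription factor of hippocampal pyramidal cells, was at 156, 130 and 127 against 110, 100 and 94.7, Gpr161, a ciliary receptor, averaged 30.8 ± 0.941 against 24.0 ± 1.16, and Mpped1 was lower at 143 ± 5.26 against 161 ± 3.29. Of 11 CA3 and CA2 markers none had an unadjusted p under 0.05. Of 16 interneuron genes Vip and Reln, the extracellular signal reelin (35.6, 33.6 and 38.1 against 38.4, 43.0 and 41.8), were lower.

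Postsynaptic scaffold and signalling genes were nearly all above 0, 28 of 30, yet small in size (median 0.12). Among all genes 48% were above 0, and 3.85% were higher and 3.91% lower at an unadjusted p under 0.05. Camk2a, the kinase of synaptic potentiation, was at 815, 650 and 679 against 538, 541 and 515 (log2 fold change 0.42, with an SE of 0.18), and the adhesion molecule Nlgn3 at 81.0, 74.9 and 76.9 against 63.6, 61.2 and 69.7. These 2 were the members higher at an unadjusted p under 0.05, and there were 0 without enriched ethanol replicate 1 or 3 and without enriched saline replicate 1 or 2. Shank1, a scaffold, averaged 83.7 ± 15.7 against 58.4 ± 6.83 and did not reach that level. Among 15 AMPA and NMDA receptor genes the auxiliary subunit Cnih2 was at 290, 307 and 295 against 267, 251 and 220. The complexin gene Cplx1, a clamp of vesicle fusion, averaged 230 ± 6.85 against 196 ± 23.4. It belongs to the presynaptic list, of which 18 of 30 genes were above 0 (median 0.0137), and Unc13b of that list was lower. Of 12 GABA-A receptor subunits only Gabrd, the extrasynaptic delta subunit, had an unadjusted p under 0.05, and it was lower, at 23.1, 25.2 and 25.1 against 29.4, 29.1 and 34.8. Of 29 microtubule-associated proteins 23 were above 0 (median 0.07), and Map1a, Map1b, Map2 and Map7 were higher at that level. Map1b was at 536, 471 and 432 against 398, 398 and 393, and Map2 at 1147, 1096 and 1085 against 1046, 1027 and 1012, so all 3 large dendritic and axonal members were separate. This count was 2 without enriched ethanol replicate 1. The 13 tubulin genes had a median of 0.02 with none at that level.

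**Figure D4:**
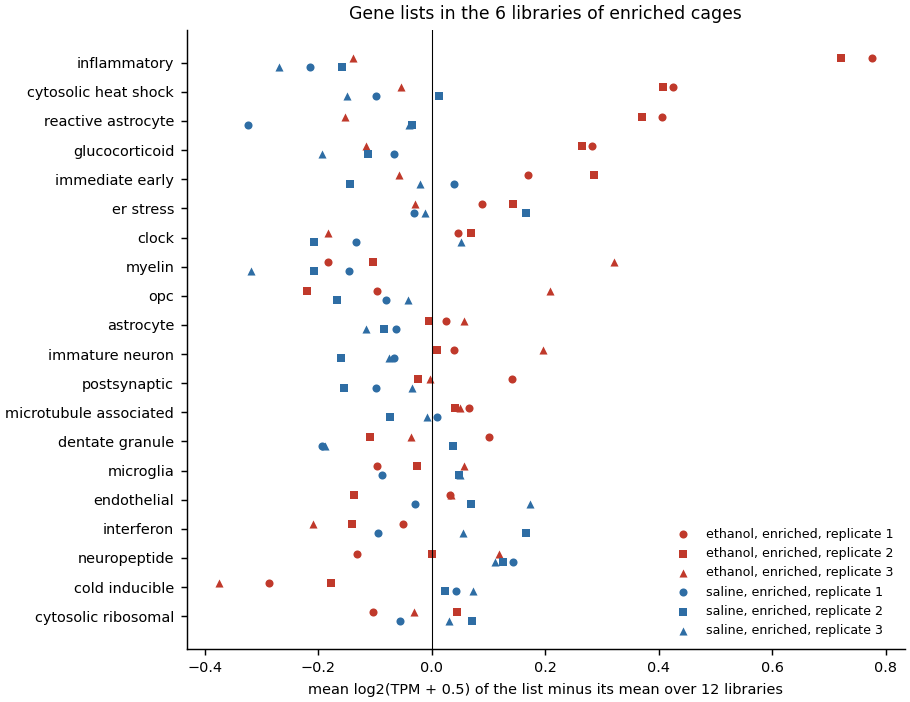
Mean of log2(TPM + 0.5) over the genes of 20 lists in each of the 6 enriched libraries, as the difference from the list's mean over all 12 libraries on the x axis, with colour for group and marker shape for replicate. Enriched ethanol replicates 1 and 2 are at 0.425 and 0.407 for cytosolic heat shock genes and replicate 3 at -0.0537, whereas for myelin replicate 3 is the highest at 0.32. The inflammatory points are not to be read as a result, because some of those genes passed the filter only through libraries in which they were high.

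Some groups were lower in ethanol mice. The cold-inducible RNA-binding proteins Cirbp and Rbm3, whose messages follow body temperature, were both lower. Cirbp was at 72.0, 74.3 and 71.1 against 97.3, 93.6 and 86.0 (log2 fold change -0.34, with an SE of 0.09), and Rbm3 at 144, 163 and 130 against 170, 172 and 200 (log2 fold change -0.31, with an SE of 0.09). Of 25 interferon response genes 8 were above 0 (median -0.18), against 48% of all genes. Ifit3b and Ifi27 were lower at an unadjusted p under 0.05, as were 3.91% of all genes. Ifit3b, an interferon response gene, was at 3.77, 3.26 and 2.66 against 5.77, 4.97 and 5.04, and its near-identical copy Ifit3 at 6.82, 6.73 and 7.66 against 7.84, 9.40 and 9.03. Both were separate, and the division of reads between them is uncertain. Ifi27 was at 41.4, 44.6 and 46.3 against 53.9, 78.9 and 55.4. Clock genes did not share one direction: of 22 tested, 16 were above 0 (median 0.10) and 2 were lower at an unadjusted p under 0.05. Arntl (BMAL1), the activator of the clock, was at 24.7, 24.9 and 30.6 against 39.7, 31.1 and 31.0, and Csnk1d, a kinase that times PER proteins, averaged 69.7 ± 3.27 against 78.9 ± 6.71. Per1 was at 32.0, 35.7 and 17.8 against 17.1, 16.9 and 27.3, with ethanol replicates 1 and 2 highest. The count of clock genes higher at an unadjusted p under 0.05 was 0, and 7 without enriched ethanol replicate 3 and 3 without enriched saline replicate 3. The 2 lower ones became 0 without enriched ethanol replicate 1 or enriched saline replicate 1. The hour of death is not given in the labels.

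Of 18 endothelial genes 5 were above 0 (median -0.11), against 48% of all genes. At an unadjusted p under 0.05, 3.91% of all genes were lower. Cldn5, the main claudin of brain vessels, was at 24.7, 20.2 and 37.9 against 35.8, 39.6 and 47.0, and Slc2a1, the glucose transporter of the blood-brain barrier, went the other way at 45.9, 44.5 and 32.9 against 24.6, 29.7 and 30.4. In both genes ethanol replicates 1 and 2 were the farthest from saline, and without replicate 3 the endothelial genes lower at an unadjusted p under 0.05 numbered 4 in place of 1. The choroid plexus list had 0 of 18 genes above 0 and a median of -1.14, which rested on enriched saline replicate 2: without it the median was 0.08, while 6 and 8 genes were lower at an unadjusted p under 0.05 without enriched saline replicates 1 and 3, against 0 with all libraries. Ttr, the thyroxine carrier that choroid plexus secretes, was at 26.4, 31.4 and 32.3 against 55.7, 7503 and 20.8. Of 14 meningeal fibroblast genes 1 was above 0 (median -0.19), and that library had their highest sum as well (2500 against 1498 to 2164).

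Groups of genes that every cell uses differed little. The shares over all genes were 48% above 0, 3.85% higher and 3.91% lower at an unadjusted p under 0.05. The 79 cytosolic ribosomal protein genes had a median of -0.0469 with 13 above 0 and 0 at an unadjusted p under 0.05, and the 46 nuclear respiratory chain genes a median of -0.0439. Ndufs6 was at 158 ± 5.46 against 136 ± 9.62 and Ndufv1, another complex I subunit, at 188 ± 7.13 against 213 ± 7.45. The 13 respiratory genes of mitochondrial DNA had a median of 0.09 and none at that level. The 10 tested enzymes of ethanol, acetaldehyde and acetate metabolism had a median of -0.0249 with none at that level, and 3 listed ones, Adh1, Adh7 and Cyp2e1, were below the filter. Of 19 apoptosis regulators 2 were higher: Bbc3 (PUMA), which promotes cell death, at 8.04, 10.8 and 9.29 against 6.55, 7.12 and 6.21, and Mcl1, which opposes it, at 48.4, 45.2 and 40.6 against 39.3, 36.4 and 37.2. Among the lists not yet named, mural cell genes had a median of 0.06 (12 tested), striatal genes -0.16 (14), thalamic and habenular genes 0.03 (13), spectrins, ankyrins and other giant proteins 0.02 (20), and progenitor and Notch genes -0.0358 (23; Vcam1 higher and Hes5 lower at that level, with 4 lower without enriched ethanol replicate 3). Neocortical and subicular genes had a median of -0.18 (15), with Nts and Rspo2, an enhancer of Wnt signalling, lower at that level. Ependymal genes had a median of 0.21 (10), with Tmem212 higher. Of 14 insulin-like growth factor genes Igfbpl1 and Irs2, an adaptor of the insulin receptor, were higher (median -0.0415), and of 7 neurotrophin genes Ntf3 was (median 0.05). The 20 most abundant genes averaged between 2275 and 52515, and the largest difference among them was a log2 fold change of 0.21.

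Ethanol and saline mice of standard cages were compared in the same fit. limma called 2 genes there (0.0134%), with 561 higher (3.75%) and 544 lower (3.64%) at an unadjusted p under 0.05. All 3 ethanol libraries lay above all 3 saline libraries for 914 genes (6.11%) and below them for 895 (5.99%). The comparisons share no library, though one fit supplied their spread. Across the 14947 genes, which are not independent replicates, their log2 fold changes had a Pearson correlation of 0.04 and a Spearman correlation of -0.00445. Of the 1160 genes at an unadjusted p under 0.05 in enriched cages, 611 had the same sign in standard cages. In 87 genes both p-values were under 0.05 in the same direction and in 51 in opposite directions.

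Genes alike in both housings included Sox11, Cirbp, Rbm3, Hes5 and Ifit3b. Sox11 in standard cages was at 11.7, 11.3 and 10.7 after ethanol and at 7.12, 8.68 and 7.90 after saline (log2 fold change 0.49, and 0.46 in enriched cages). Rbm3 was at 180, 179 and 202 against 240, 258 and 237 in standard cages (log2 fold change -0.39), and the ethanol libraries lay below the saline libraries in both housings. Hes5 and Ifit3b had log2 fold changes of -0.59 and -0.80 there. Myelin genes had medians above 0 in both housings. In standard cages the median was 0.32, with 10 of 22 higher at an unadjusted p under 0.05, against 3.75% of all genes. The myelin list means, as differences from the mean over all 12 libraries, overlapped between groups in both housings. In enriched cages ethanol replicate 1 (-0.182) lay below saline replicate 1 (-0.145), while ethanol replicates 2 and 3 (-0.104 and 0.322) lay above it. In standard cages saline replicate 1 (0.298) lay above ethanol replicates 2 and 3 (0.239 and 0.17) and below ethanol replicate 1 (0.331). Immature neuron genes also had medians above 0 in both housings. In standard cages the median was 0.26, with 8 of 17 higher at an unadjusted p under 0.05. In enriched cages 13 of the 17 were above 0 and 2 were higher at that level. Their summed level there was not higher, at 1490 to 1631 after ethanol and 1580 to 1691 after saline. Dcx differed more in standard cages, where its log2 fold change was 0.73.

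Other groups did not go together. The 15 dentate granule cell genes had a median of -0.20 in standard cages, with 0 above 0. At an unadjusted p under 0.05, 6 were lower, against 3.64% of all genes. Their list means overlapped between groups: standard saline replicate 2 was highest at 0.493, and standard ethanol replicate 1 (0.134) lay above standard saline replicate 1 (0.0556). Heat shock genes had a median of 0.02 in standard cages with 0 of 25 at an unadjusted p under 0.05. The difference between the housings was tested for each gene as an interaction, and limma called 2 genes (0.0134%), with 1107 (7.41%) at an unadjusted p under 0.05. Both called genes were listed at 0 in all 6 enriched libraries. They passed the filter only through 1 group of standard cages, so these calls restate the values of those cages. The annotated gene nearest to passing was Map7, whose log2 fold change was 0.30 in enriched cages and -0.36 in standard cages, where it was at 64.3, 64.2 and 59.4 after ethanol and at 84.3, 73.5 and 84.1 after saline. The difference of 0.66 (SE 0.09) had a limma adjusted p of 0.0697. It passed without standard saline replicate 2 (limma adjusted p = 0.0153), with either other scaling (0.0472 and 0.0348) and with library weights (0.03). Tcerg1l was at 8.996, 7.58 and 9.17 against 5.83, 6.12 and 6.01 in standard cages, the reverse of its order in enriched cages (difference -1.01, SE 0.16; limma adjusted p = 0.163, and 0.0494 with no mean-variance trend). Adcyap1 was likewise reversed, at 9.97, 10.3 and 9.47 against 8.53, 7.78 and 8.19 (difference -0.88, SE 0.17; limma adjusted p = 0.46). Ermp1, a protease of the endoplasmic reticulum, and Rab8a followed with differences of 0.45 and 0.51. None of these 5 passed under the settings used here for all other values. Nts, Rab3b, Rspo2 and Lct also had an unadjusted p under 0.05 in each housing with opposite signs.

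**Figure D5:**
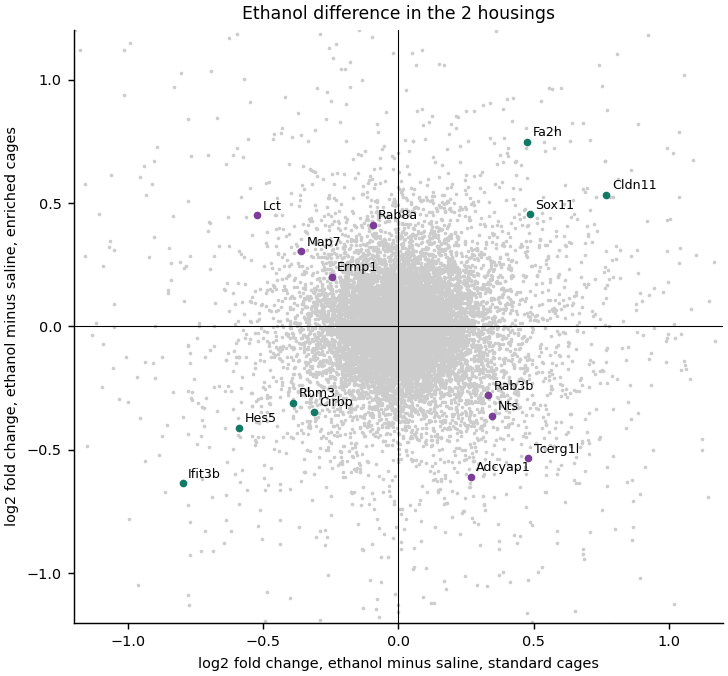
Log2 fold change of ethanol over saline for each gene in standard cages (x axis) and in enriched cages (y axis), in grey, with named genes alike in both housings in green and those of opposite sign in purple; 243 genes beyond 1.2 on either axis are not shown. Sox11 lies at 0.49 and 0.46, and Map7 at -0.36 and 0.30.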

How the data were processed

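Hippocampal RNA of 12 mice (4 groups of 3) was sequenced from stranded total RNA libraries after ribosomal RNA depletion, per the labels' protocols. The submitters' processing notes name CASAVA, kallisto, sleuth and mm10; the sources used here do not give versions, roles or the annotation. The authors deposited 1 table named as TPM. Its enriched columns sum to 973187 to 1013701 and not to 1 fixed total, so the values were treated as a deposited signal proportional to TPM. Read counts cannot be had from it, so no depth or counting interval is given. Symbols, for 35879 of 36119 identifiers, and positions come from GENCODE M21 on GRCm38, and upstream sequences from RefSeq on GRCm38.p6.

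The design had assumed plain TPM; the test is the same. Genes with a mean of at least 1 were analysed as log2(value + 0.5). limma 3.58.1 in R 4.3.3 fitted 4 group means to all 12 libraries, with a mean-variance trend (8 residual degrees of freedom), two-sided tests and Benjamini-Hochberg adjustment over 14947 genes. The fit was tested on simulated data. The alternatives were the 6 enriched libraries alone, pseudocounts of 0.1 and 1, other filters, 2 other scalings, no trend, library weights, a replicate block and each library left out.

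The members and the 51 gene lists were chosen with earlier results of these data known. Genes named are the 12 of smallest p in each direction whose groups do not overlap, the 6 of largest fold change in each direction with an unadjusted p under 0.01 (both without pseudogenes, unnamed predicted genes and groups all at 0), up to 2 per list and direction at an unadjusted p under 0.05, 18 fixed genes, the 20 most abundant as a range, and the 5 of smallest interaction p. Other genes, among them those called without 1 library, members of a list beyond its first 2, Ch25h, Lcn2, S100a9, Per1, Ifit3, Vipr1, Prox1 and Shank1, were chosen after their values were seen. Some results that the rule names are not reported here.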

Additional observations from a re-analysis of the deposited data

Results flagged for a closer look

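The interaction test over all 12 libraries, which asks whether the ethanol difference differs between housings, called 2 features of the table. Gm44922, annotated as an unprocessed pseudogene, had a limma adjusted p of 0.00263 for that difference. It was listed at 0 in all enriched libraries and after ethanol in standard cages, and at 8.48, 8.41 and 8.35 in the standard saline libraries. The unnamed feature ENSMUSG00000118641 had a limma adjusted p of 0.0418. It was listed at 0 in all enriched and standard saline libraries and at 10.4, 5.69 and 4.41 in the standard ethanol libraries. In both, the enriched libraries carried no value, so the test only restates the values of standard cages. Each feature passed the filter only through the 1 group in which it was above 0, the same values that gave the call. A 0 in this table can also be a failed estimate. With the unnamed feature, leaving out 1 library ended the call in 10 of 12 cases, while Gm44922 was called in all 12.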

How the results depend on the processing

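With limma, the count of genes called for ethanol in enriched cages, 0 with the settings of the report, was 1 with only the 6 enriched libraries, 2 with a pseudocount of 0.1, 1 with no filter beyond a value above 0, and 0 with the replicate block and the other settings. It ran from 0 to 15 when 1 enriched library was left out, and the 15 came without enriched ethanol replicate 3. The count for ethanol in standard cages, 2 in the report, was 0 with a pseudocount of 0.1, with a mean of at least 5 or with protein-coding genes only, 7 with no filter, and 2 to 7 with 1 standard library left out. The interaction count, 2 in the report, was 0 under those same 3 settings, 4 with no filter, 2 with the replicate block (Gm44922 and Kcng2, so that ENSMUSG00000118641 was no longer called) and 1 to 12 with 1 library left out. The cause of these moves was not tested. Reversed signs were found for Fos (-0.18 without enriched ethanol replicate 2 and -0.13 without enriched saline replicate 2, up to 0.38 without enriched ethanol replicate 3) and Bdnf (-0.0605 without enriched ethanol replicate 3 and -0.0796 without enriched saline replicate 3, up to 0.15 without enriched ethanol replicate 1). The labels state no pairing of libraries by replicate number, and the main fit used none. Deviations of same-numbered enriched libraries had correlations of 0.0523, 0.0364 and 0.012. Each enriched library correlated best with its own number, a hint from the data and not the design, and pairing cannot be decided from these values. Depth is unknown, so no limit of detection is given.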
